A study of Mus musculus with 6 samples.

Results

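The genes described here are 31 nuclear receptors and nuclear receptor coregulators, of 25184 genes with a row in the table of raw counts. They were chosen by name, with no threshold on their values. The list holds 27 receptors and 4 coregulators, and each was matched to 1 row. RNA was sequenced from primary hepatocytes of Sucnr1 fl/fl mice (3 libraries) and Hep-Sucnr1 KO mice (3 libraries) after a night in culture. The Sucnr1 fl/fl mice are floxed at both copies of Sucnr1, which encodes a receptor for extracellular succinate, and have no Cre. In Hep-Sucnr1 KO mice the same alleles are recombined by Cre under the albumin promoter, which acts in hepatocytes and removes exon 2. Both groups share the floxed alleles and chow. The Alb-Cre mice of the cross had a C57BL6J background. The background of the floxed line and the age and sex of these animals are not given in the sources used here. The cells came from a perfused and digested liver lobe, were cleared of debris on a density gradient and were plated on collagen in medium with high glucose and serum, so every value is that of attached cultured cells. RNA was extracted on 2 days. Sucnr1 fl/fl library 1 and Hep-Sucnr1 KO library 3 are of day 1, and Sucnr1 fl/fl libraries 2 and 3 and Hep-Sucnr1 KO libraries 4 and 5 are of day 2.

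Nuclear receptors are transcription factors that bind DNA through a zinc finger domain and, in most cases, a small lipophilic ligand through a second domain. Many of them, among them the receptors of thyroid hormone, retinoic acid, oxysterols, fatty acids and vitamin D, bind DNA as a dimer with a retinoid X receptor. Steroid receptors bind as homodimers. Without ligand several receptors hold corepressors such as NCOR1, which brings histone deacetylase to the gene, and with ligand they hold p160 coactivators, the products of Ncoa1, Ncoa2 and Ncoa3. In the liver these receptors set bile acid, cholesterol, lipid, glucose and drug metabolism.

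3 promoter windows are printed because they belong to genes of the list whose own transcription is a known readout of signalling. Rarb is induced by retinoic acid through an element in its promoter, and Nr4a1 and Nr4a2 are immediate early genes that cyclic AMP induces. The windows are those of RefSeq on GRCm38.p6, run from 250 bases before to 50 bases after the start of the transcript, and are written on the strand of the gene. In the Rarb window, chr14:16575427-16575726 on the minus strand, capitals mark a direct repeat of GGTTCA and AGTTCA with 5 bases between them. In the windows of Nr4a1, chr15:101266596-101266895 on the plus strand, and of Nr4a2, chr2:57123954-57124253 on the minus strand, capitals mark TGACG or, where the match is on the other strand, CGTCA.
Rarb: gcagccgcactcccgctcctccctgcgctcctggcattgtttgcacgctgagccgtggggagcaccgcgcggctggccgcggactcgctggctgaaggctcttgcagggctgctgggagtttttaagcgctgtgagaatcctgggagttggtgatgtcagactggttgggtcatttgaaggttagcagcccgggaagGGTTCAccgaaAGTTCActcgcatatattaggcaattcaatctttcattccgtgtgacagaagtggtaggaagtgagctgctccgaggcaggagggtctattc
Nr4a1: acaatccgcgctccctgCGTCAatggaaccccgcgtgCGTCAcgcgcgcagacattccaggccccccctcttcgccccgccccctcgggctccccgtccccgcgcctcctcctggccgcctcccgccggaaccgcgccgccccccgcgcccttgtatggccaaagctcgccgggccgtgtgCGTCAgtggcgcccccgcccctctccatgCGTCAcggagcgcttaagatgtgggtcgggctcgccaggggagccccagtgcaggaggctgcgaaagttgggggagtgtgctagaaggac
Nr4a2: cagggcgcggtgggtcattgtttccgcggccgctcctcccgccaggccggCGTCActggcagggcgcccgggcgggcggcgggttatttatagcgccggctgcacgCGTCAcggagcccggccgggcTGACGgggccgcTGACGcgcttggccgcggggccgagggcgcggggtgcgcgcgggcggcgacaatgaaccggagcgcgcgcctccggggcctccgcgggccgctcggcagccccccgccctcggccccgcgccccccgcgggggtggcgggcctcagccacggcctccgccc
The repeat (AGTTCA or GGTTCA, then 5 bases, then AGTTCA or GGTTCA, either strand) was found in 0.0396% of the 32851 windows of the table. It lay from 53 to 37 bases before the start of Rarb, and 1 of the 26 listed genes with a window held it. TGACG on either strand was found in 20.8% of all windows, and 4 or more matches in 0.231%. Nr4a1 and Nr4a2, with 4 matches each, were the 2 listed genes with 4 or more. These matches describe the letters of the windows and were not tied to binding or to a change in these libraries.

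The libraries held between 30504248 and 38770694 counts, so that 3 counts were worth 0.077 to 0.098 CPM by library size alone. All other CPM are counts scaled to library size with TMM factors. Sucnr1 had 258, 118 and 103 counts in the Sucnr1 fl/fl libraries and 84, 28 and 5 in Hep-Sucnr1 KO libraries 3, 4 and 5. Hep-Sucnr1 KO library 3, at 2.66 CPM, was close to Sucnr1 fl/fl libraries 2 and 3 (3.55 and 3.40 CPM). The log2 fold change of Sucnr1 was -2.23 ± 0.54 (SE), with an adjusted p of 0.998 in edgeR. Alb, the most abundant hepatocyte marker, lay between 37110 and 68900 CPM, and all 8 hepatocyte markers were detected in every library. Markers of other liver cells were detected too, and their sums moved between libraries. The summed level of 8 Kupffer cell markers, led by Clec4f, was 34.04, 30.46 and 110 CPM in Sucnr1 fl/fl and 6.42, 94.3 and 67.3 CPM in Hep-Sucnr1 KO. Over 8 sinusoidal endothelial markers, led by Pecam1, it was 51.1, 29.7 and 27.1 CPM against 21.2, 34.6 and 26.8 CPM, and over 8 stellate cell and fibroblast markers, led by Dcn, 24.8, 10.1 and 5.97 CPM against 8.67, 4.72 and 9.77 CPM. Over 6 cholangiocyte markers it ranged from 350 to 650 CPM, carried by Spp1 (266 to 526 CPM) and Sox9 (83.1 to 122 CPM), while Krt19, Krt7, Epcam and Tspan8 were at 2.61 CPM or less in every library. Of the defining markers, 2 of the stellate list and 1 of the cholangiocyte list were at 0 in at least 1 library. In such bulk samples fewer cells of a type and less RNA per cell cannot be told apart.

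Most of the listed genes were expressed in the cultured hepatocytes. Of the 31 genes, 26 were at 1 CPM or more in every library, 83.9% of the list, against 43.3% of the 25184 genes of the table. The mean was 10 CPM or more for 18 genes, from 1 to 10 CPM for 8 and under 1 CPM for 5. The highest levels per transcript length, in TPM (length-scaled transcript share; mean ± SD, n = 6 libraries), were those of the glucocorticoid receptor gene Nr3c1 at 32.1 ± 3.73, of Rxra at 29.6 ± 7.73, of Nr2f6 at 25.0 ± 4.64 and of Nr1h3 at 25.0 ± 3.64. The ranges of these genes overlapped, so their order is not set beyond the spread between libraries. Nr1h2 followed at 18.2 ± 1.62 TPM. Set among all 43 nuclear receptor genes with a row, these genes held ranks 4, 5, 7, 8 and 10. The genes above Nr3c1, named after their values were seen, were the clock repressors Nr1d1 (278 TPM) and Nr1d2 (37.7 TPM) and the hepatocyte factor Hnf4a (85.3 TPM). The 27 listed receptors gave between 27.1% and 31.3% of the summed TPM of the 43 receptor genes in the 6 libraries.

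**Figure D1:**
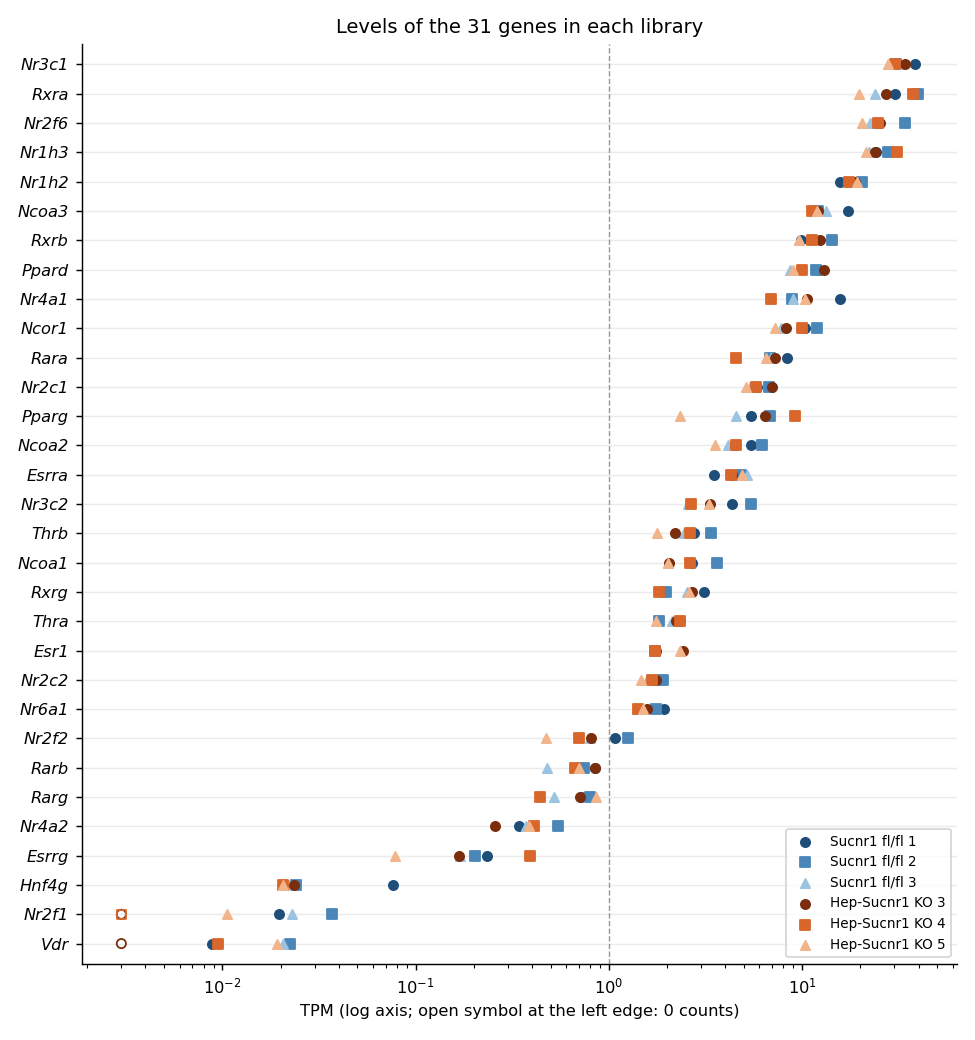
TPM on a log axis of the 31 genes in each of the 6 libraries, ordered by their mean, with blue symbols for Sucnr1 fl/fl and brown to orange symbols for Hep-Sucnr1 KO; the dashed line is 1 TPM and open symbols at the left edge are 0 counts. Levels run from 32.1 TPM for Nr3c1 down to 3 genes with at most 4 counts in any library.

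At the other end, 3 receptor genes were at or near the limit of detection. Vdr, which encodes the vitamin D receptor, had 1, 2 and 2 counts in the Sucnr1 fl/fl libraries and 0, 1 and 2 in the Hep-Sucnr1 KO libraries. Nr2f1, the gene of the orphan receptor COUP-TFI, had 2, 3 and 2 against 0, 0 and 1 counts. Hnf4g, a paralog of Hnf4a best known from gut and kidney, had 4, 1 and 1 against 1, 1 and 1 counts. All values but the 4 counts of Hnf4g were at or below 3 counts, the number that a count of 0 still allows, which covers counting error only. These 3 genes did not pass the filter on low counts (a mean of normalized counts above 5), and 28 of the 31 were tested. Both genes with a row among the vitamin D receptor targets of the list were below the filter as well.

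Thyroid hormone and retinoic acid receptors were expressed at low to moderate levels. Thra, whose receptor carries thyroid hormone action in many tissues, was at 5.62, 3.999 and 5.50 CPM in Sucnr1 fl/fl and 5.29, 5.91 and 4.55 CPM in Hep-Sucnr1 KO. Thrb, the main thyroid hormone receptor of the liver in animals, was at 10.6, 11.9 and 10.2 against 8.42, 10.6 and 7.34 CPM. The lowest Sucnr1 fl/fl value of Thrb was below the highest Hep-Sucnr1 KO value, so the groups overlapped. Per transcript length Thrb made up 54.2 ± 5.53% (SD, n = 6 libraries) of the TPM of the pair, and its share was highest, at 64.9%, in Sucnr1 fl/fl library 2. The 3' end of Thra overlaps Nr1d1 on the other strand, and the counting used the strand.

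Rara was the leading retinoic acid receptor gene, with 82.8 ± 2.67% of the family's TPM, and its share stayed between 80.5% and 87.4%. Its level was 19.0, 14.1 and 17.1 CPM in Sucnr1 fl/fl and 16.2, 10.9 and 15.9 CPM in Hep-Sucnr1 KO, lowest in library 4. Rarb, whose window with the direct repeat is shown above, gave 8.92 ± 1.85% of the family's TPM. Its CPM were 2.31, 1.86 and 1.42 against 2.31, 1.92 and 2.06, with the lowest value in Sucnr1 fl/fl library 3. Rarg, a receptor best known from skin and cartilage, gave 8.32 ± 1.55% and ranged from 1.03 CPM in Hep-Sucnr1 KO library 4 to 2.06 CPM in library 5. The ranges of the Rarb and Rarg shares overlapped, so that neither is set above the other.

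Among the retinoid X receptors, the dimer partners of most of the lipid-sensing receptors, Rxra was most abundant. It was at 86.1, 103 and 73.2 CPM in Sucnr1 fl/fl and at 76.6, 112 and 60.2 CPM in Hep-Sucnr1 KO. Rxra held 67.9 ± 4.60% of the family's TPM, Rxrb 26.1 ± 3.23% and Rxrg, known mostly from muscle and brain, 5.99 ± 1.96%. The 3 ranges did not meet, so the order Rxra, Rxrb, Rxrg held in each of the 6 libraries. Rxrb varied less than Rxra, from 20.4 to 27.1 CPM.

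**Figure D2:**
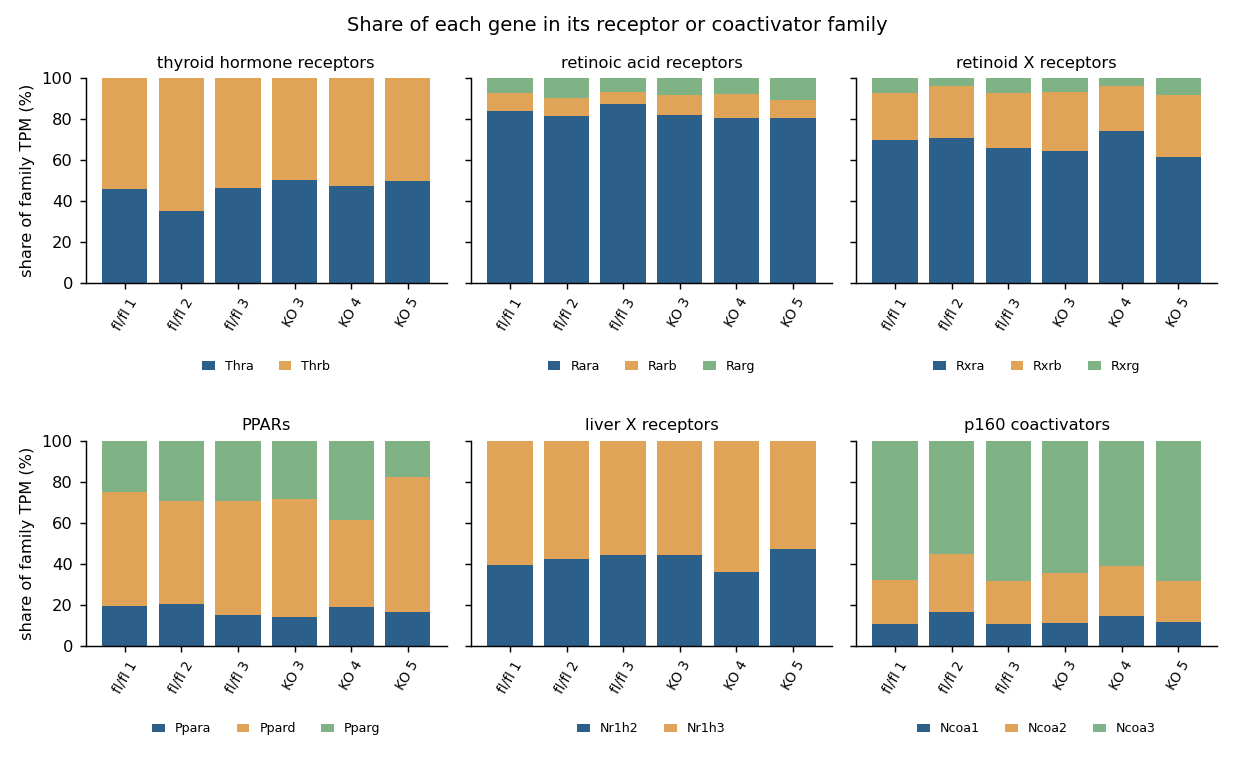
Share in percent (vertical axis, from 0 to 100) of each gene in the summed TPM of its family in each of the 6 libraries, for 5 receptor families and the p160 coactivators. Rara and Rxra take the largest shares of their families in every library, and the share of Pparg runs from 17.3% in Hep-Sucnr1 KO library 5 to 38.8% in library 4.

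The PPARs are fatty acid sensors. Ppara, the main form in liver, was not on the list and serves here only as the third member of the family. Ppard held 54.8 ± 8.004% of the family's TPM, Pparg 27.9 ± 6.97% and Ppara 17.3 ± 2.56%. Ppard was at 47.6, 42.5 and 36.8 CPM in Sucnr1 fl/fl and at 50.2, 41.3 and 37.8 CPM in Hep-Sucnr1 KO, and in both genotypes the library of day 1 was the highest. Pparg, the regulator of fat cell differentiation, was at 8.32, 9.59 and 7.55 CPM in Sucnr1 fl/fl and at 9.75, 14.9 and 3.88 CPM in Hep-Sucnr1 KO. The Hep-Sucnr1 KO libraries thus held both its highest and its lowest value. The liver X receptors sense oxysterols and drive cholesterol export and lipogenesis. Nr1h3, the form enriched in liver and macrophages, was at 31.5, 33.3 and 31.6 CPM in Sucnr1 fl/fl and at 30.8, 42.8 and 30.4 CPM in Hep-Sucnr1 KO, with library 4 above the other 5. The broadly expressed Nr1h2 was at 27.5, 32.8 and 33.8 against 32.5, 32.2 and 36.0 CPM. Nr1h3 took 57.7 ± 3.94% of the TPM of the pair and more than Nr1h2 in each library. Nr1h3 is also expressed in Kupffer cells, whose summed markers ranged from 6.42 to 110 CPM between libraries. Nr1h3 itself ranged from 30.4 to 42.8 CPM in the same libraries, and the part of Kupffer cells in these values was not tested.

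The orphan receptors without an agreed ligand included the steadiest gene of the list. Nr2c2, which encodes the testicular receptor TR4, was at 13.3, 13.6 and 13.3 CPM in Sucnr1 fl/fl and at 13.5, 13.7 and 12.3 CPM in Hep-Sucnr1 KO. Its coefficient of variation over the 6 libraries was 3.89%, below the 4.75% of counting error alone at its mean count. Its partner Nr2c1 (TR2) was at 13.3 to 16.6 CPM and gave 77.9 ± 1.00% of the TPM of the pair, the steadiest share measured. Nr2f6, a COUP-TF relative that acts as a repressor, was at 36.8, 48.3 and 38.0 CPM against 38.7, 40.1 and 34.3 CPM. Nr6a1, the germ cell nuclear factor, best known from embryonic stem cells and germ cells, was at 8.39 to 10.8 CPM. Nr2f2, the gene of COUP-TFII at chr7:70351944-70366735 of GRCm38, was at 4.81, 5.14 and 3.89 CPM in Sucnr1 fl/fl and at 3.58, 3.31 and 2.28 CPM in Hep-Sucnr1 KO. Every Hep-Sucnr1 KO value of Nr2f2 was below every Sucnr1 fl/fl value.

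Of the steroid and estrogen-related receptors, Nr3c1 had the highest mean of the listed genes in CPM and in TPM, although in TPM Rxra and Nr2f6 were above it in Sucnr1 fl/fl library 2, and Rxra and Nr1h3 in Hep-Sucnr1 KO library 4. Its level was 154, 112 and 138 CPM in Sucnr1 fl/fl and 135, 127 and 120 CPM in Hep-Sucnr1 KO. Glucocorticoid signalling through this receptor induces liver enzymes such as tyrosine aminotransferase. Nr3c2, which encodes the mineralocorticoid receptor, was at 14.6, 16.8 and 9.33 CPM against 11.1, 9.42 and 12.0 CPM, and took 10.04 ± 2.77% of the TPM of the pair. Esr1, the estrogen receptor of the liver, was at 12.5, 11.3 and 13.2 CPM in Sucnr1 fl/fl and at 16.96, 12.96 and 17.9 CPM in Hep-Sucnr1 KO. The groups overlapped by a small margin, since Hep-Sucnr1 KO library 4 was below Sucnr1 fl/fl library 3. Esrra, an orphan receptor that works with PGC-1 coactivators on mitochondrial genes, was at 8.04, 10.1 and 12.9 against 9.81, 10.3 and 12.1 CPM. Esrrg, its relative of oxidative tissues, was scarce, with 29, 20 and 18 counts in Sucnr1 fl/fl and 17, 45 and 9 counts in Hep-Sucnr1 KO.

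Nr4a1, an immediate early gene and a ligand-independent activator, was at 28.6, 14.8 and 17.7 CPM in Sucnr1 fl/fl and at 19.1, 13.3 and 20.3 CPM in Hep-Sucnr1 KO. Sucnr1 fl/fl library 1 stood above the other 5 libraries. Nr4a2, which shares the 4 TGACG matches shown above, was far lower, at 0.728, 1.05 and 0.857 CPM against 0.538, 0.915 and 0.880 CPM, and was not highest where Nr4a1 was. The 7 other immediate early genes of the list, Fos and Jun among them, had summed levels from 1598 CPM in Hep-Sucnr1 KO library 5 to 1999 CPM in Sucnr1 fl/fl library 1.

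All 4 coregulator genes were expressed at 9 CPM or more in every library. Ncor1, the corepressor, was at 69.3, 73.1 and 56.5 CPM in Sucnr1 fl/fl and at 54.6, 69.9 and 51.8 CPM in Hep-Sucnr1 KO. Ncoa3 (SRC-3) was at 71.3, 45.4 and 59.2 CPM against 48.9, 48.8 and 53.2 CPM. Ncoa2 (TIF2), which serves the glucocorticoid receptor as coactivator, was at 44.4, 46.2 and 36.4 against 36.3, 39.1 and 31.2 CPM. Ncoa1 (SRC-1) was lowest, at 12.0, 14.8 and 9.76 against 9.08, 12.4 and 9.68 CPM. Per transcript length Ncoa3 made up 64.3 ± 5.33% of the p160 coactivators, Ncoa2 23.4 ± 3.01% and Ncoa1 12.4 ± 2.48%, and this order held in every library. Sucnr1 fl/fl library 2 departed most from the mean, with Ncoa3 at 55.1%.

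The genes that varied most between libraries were Esrrg, Pparg, Nr2f2 and Nr4a1. The highest library was 2-fold or more above the lowest for these 4 of the 28 genes tested, 14.3%, against 32.8% of all 15105 genes tested. The ratio was 4.87 for Esrrg, 3.85 for Pparg, 2.26 for Nr2f2 and 2.15 for Nr4a1, and Rarg and Nr4a2 lay just below the limit at 2.00 and 1.96. For 12 genes it was under 1.5. The median coefficient of variation over the 6 libraries was 16.9% for the listed genes and 17.2% for all genes tested, and the median ratio 1.59 and 1.59, while the median level was higher for the listed genes (13.7 against 8.36 CPM). Genes of lower level vary more, so each gene was also read against tested genes of its own level, in 20 bins of mean CPM. Of the 28 genes, 2 were above the 90th percentile of their bin and 1, Nr2c2, was below the 10th. Pparg varied by 40.02% at a mean of 9.01 CPM, where the 90th percentile was 27.8%, and Nr4a1 by 28.5% at 19.0 CPM, where it was 23.5%. Esrrg varied by 51.9%, but with 9 to 45 counts a library counting error alone gave 20.9%, and its value was below the 90th percentile of 63.7% at that level. The coefficient of variation was more than 3 times the counting error for 18 of the 28 genes.

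**Figure D3:**
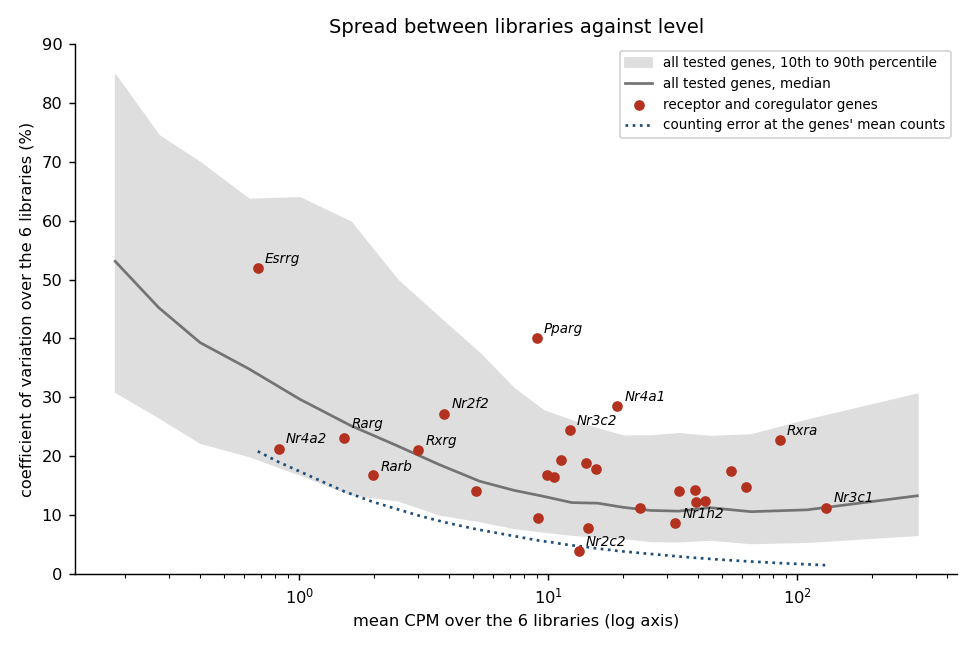
Coefficient of variation over the 6 libraries (percent) against mean CPM (log axis) for the 28 tested genes (red), with the median (grey line) and the 10th to 90th percentile (grey band) of all 15105 tested genes and the counting error (blue dots). Pparg, at 40.02%, and Nr4a1, at 28.5%, lie above the band and Nr2c2, at 3.89%, below it.

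The extremes of these ratios sat in few libraries. Pparg, Esrrg, Rxra, Nr1h3 and Nr2c2 were highest in Hep-Sucnr1 KO library 4 and lowest in Hep-Sucnr1 KO library 5, a pattern noticed in the values. It covered 5 of 28 genes, 17.9%, against 4.06% of all genes tested. For Nr2c2 the order carries no weight, since its spread was below counting error and library 4 (13.67 CPM) was barely above Sucnr1 fl/fl library 2 (13.59 CPM). Other nuclear receptors with this pattern, named after their values were seen, included Hnf4a (313 and 152 CPM in libraries 4 and 5), Ppara (9.51 and 4.73 CPM) and Nr1i3, the gene of the drug-sensing receptor CAR (23.98 and 5.58 CPM). Hepatocyte markers went both ways between these libraries. Cyp2e1, a pericentral cytochrome P450 also named after its values were seen, had the same pattern as the receptors (3430 and 684 CPM), and Alb was lowest in library 4 (37110 CPM) and highest in library 5 (68900 CPM). Both libraries are Hep-Sucnr1 KO libraries of day 2, so neither genotype nor extraction day separates them. Without library 4 the ratio of Pparg was 2.51, without library 5 it was 1.98 and without both 1.29. For Esrrg these values were 2.76, 2.47 and 1.40. Nr4a1 turned on another library, and its ratio was 1.53 without Sucnr1 fl/fl library 1. Without Hep-Sucnr1 KO library 5 the number of genes at 2-fold or more was 2, and without libraries 4 and 5 it was 0.

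**Figure D4:**
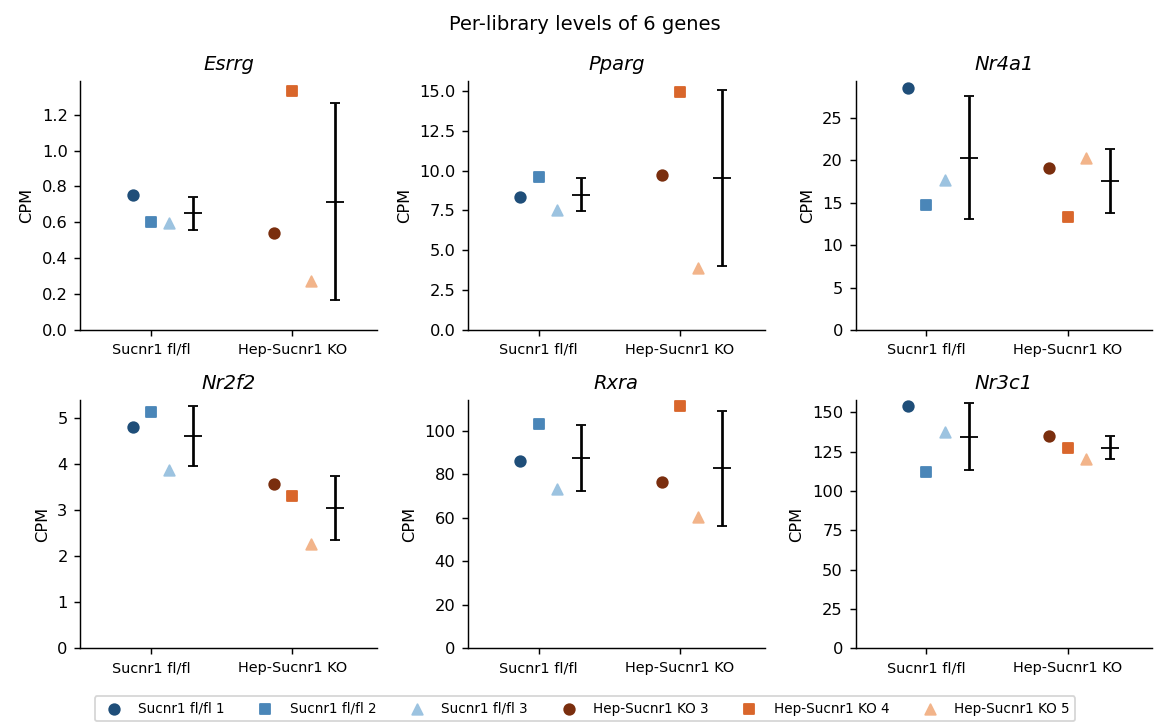
CPM (linear axis from 0) of 6 genes in the 3 Sucnr1 fl/fl and 3 Hep-Sucnr1 KO libraries, with the mean and SD of each genotype as black bars. Hep-Sucnr1 KO libraries 4 (orange squares) and 5 (light triangles) hold the highest and lowest values of Esrrg, Pparg and Rxra, and Nr2f2 is the only one of the 6 whose genotypes do not overlap.

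Whether deletion of Sucnr1 in hepatocytes altered these genes was asked of the counts with edgeR (quasi-likelihood fit, extraction day in the model). None of the 28 genes passed an adjusted p of 0.05, as for all genes tested, of which 0 or 0.0% passed in edgeR and 7 in DESeq2, none of them listed here. The smallest adjusted p over all genes in edgeR was 0.998, so Sucnr1 itself did not pass either. Hep-Sucnr1 KO library 3, whose Sucnr1 level (2.66 CPM) was close to controls, is the only Hep-Sucnr1 KO library of day 1. At an unadjusted p under 0.05 edgeR gave 1 of 28 listed genes, 3.57%, and 562 of 15105 genes, 3.72%. Hep-Sucnr1 KO values were higher for 12 of the listed genes and lower for 16, with a median log2 fold change of -0.06 against 0.00 for all genes tested. For 27 of the 28 genes the log2 fold change was within 0.4 of 0.

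The exception was Nr2f2, with a log2 fold change of -0.60 ± 0.23 (SE), an unadjusted p of 0.033 and an adjusted p of 0.998 in edgeR. The exact permutation test of 3 against 3 gave p = 0.1 (two-sided), the smallest value this design allows. Nr2f2 was also the single listed gene whose genotypes did not overlap, 3.57% of 28, against 10.6% of all genes tested, so neither count sets the list apart. Within the days its log2 ratio was -0.43 on day 1 (1 library against 1) and -0.69 on day 2 (2 against 2). COUP-TFII is known from venous endothelium and mesenchymal cells, and 7 of 8 endothelial markers and 4 of 5 tested stellate markers had lower values in Hep-Sucnr1 KO, none past an adjusted p of 0.05. The summed markers of both lists were highest in Sucnr1 fl/fl library 1, while Nr2f2 was highest in library 2. Their part in the values of Nr2f2 was not tested. Esr1 had the largest positive value, 0.37 ± 0.16 (unadjusted p = 0.052 in edgeR), with 0.44 on day 1 and 0.33 on day 2. The next were Nr3c2 at -0.33 ± 0.23 and Thrb at -0.31 ± 0.17, negative on both days. The value of Nr3c2 was -0.066 without Sucnr1 fl/fl library 2.

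By role, the groups had these medians of the log2 fold change. The 5 thyroid hormone and retinoic acid receptors had 0.06 (3 higher, 2 lower), the 3 retinoid X receptors -0.05 (1 higher, 2 lower) and the 4 tested PPAR and LXR genes 0.10 (4 higher). The 5 tested orphan receptors had -0.10 (1 higher, 4 lower), the 5 steroid and estrogen-related receptors 0.07 (3 higher, 2 lower) and the NR4A pair -0.18. All 4 coregulators had lower means in Hep-Sucnr1 KO on both days, with a median of -0.22 and values from -0.25 ± 0.14 (Ncoa2) to -0.18 ± 0.16 (Ncor1), none past the test. The library index numbers set Sucnr1 fl/fl libraries 1 and 2 (39 and 40) apart from the other 4 (85 to 88). The split into a first and a second index series was made here from these numbers alone. The paper describes 1 index set, the same PCR cycles and 1 equimolar pool for all libraries. Of the 28 genes 16, or 57.1%, were highest in Sucnr1 fl/fl library 1 or 2, against 36.9% of all genes tested. All Hep-Sucnr1 KO libraries are of the second series, where Sucnr1 fl/fl library 3 is the only control. With the index series in the model the genotype value therefore rests on that control library. In that fit 8 genes changed sign, Ncoa1 (0.18), Ncor1 (0.10) and Nr3c2 (0.23) among them, and Ncoa2 was at -0.035. These values do not tell the index series apart from the choice of control library. On the 2 days taken alone, 12 genes were negative on both, 3 were positive on both and 13 changed sign. Day 1 is 1 library against 1. The matching shares over all genes tested were not counted, so neither these signs nor those of the coregulators set the list apart.

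**Figure D5:**
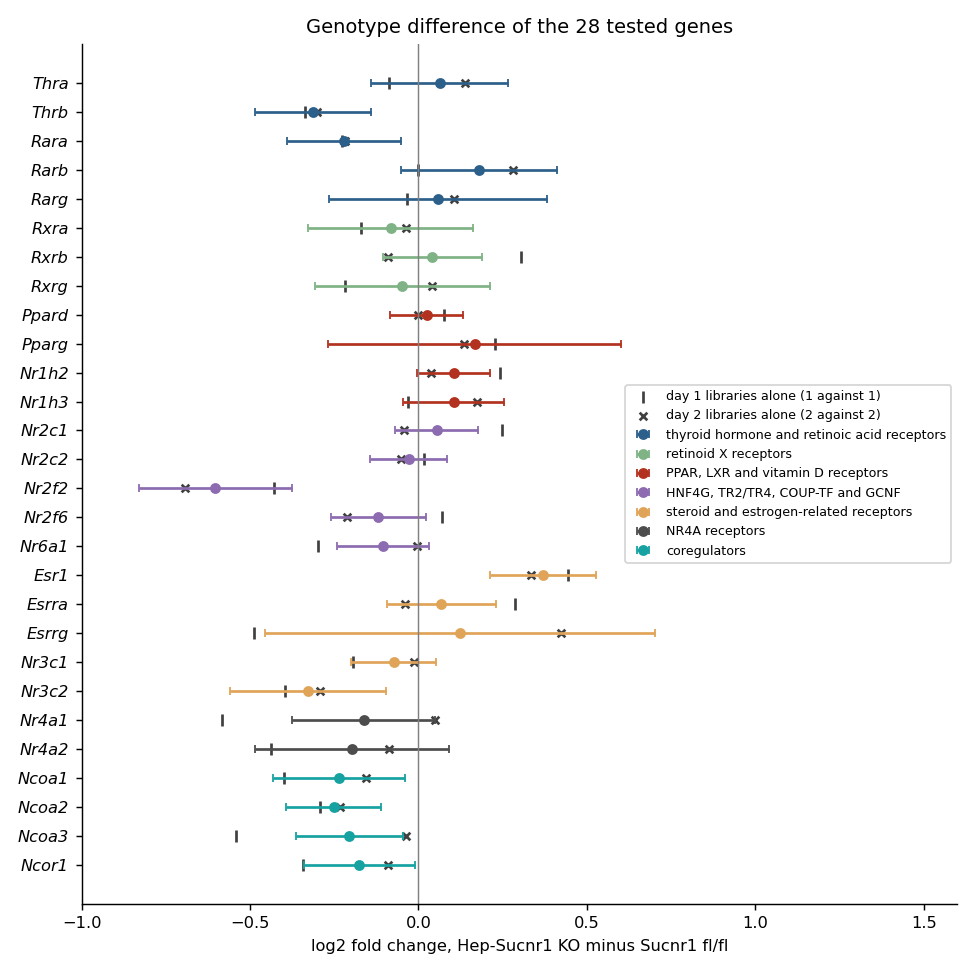
Log2 fold change of Hep-Sucnr1 KO minus Sucnr1 fl/fl for the 28 tested genes (points with SE bars from edgeR, coloured by role), with the log2 ratio of mean CPM in the libraries of day 1 (vertical ticks) and of day 2 (crosses). All 28 points lie between -0.60 (Nr2f2) and 0.37 (Esr1), and no gene passes an adjusted p of 0.05.

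The extraction day, which each genotype spans, was the other factor of the design. Of the 28 genes 0 passed an adjusted p of 0.05 for day 2 against day 1, as did 0 of all genes (0.0%) in edgeR, and 225 genes passed in DESeq2, none of them listed here. At an unadjusted p under 0.05 there was 1 listed gene, Ppard, against 7.49% of all genes tested. Its mean was 48.9 CPM on day 1 and 39.6 CPM on day 2, a log2 fold change of -0.30 ± 0.11 (unadjusted p = 0.032, adjusted p = 0.588 in edgeR). Nr4a1 had the most negative value, -0.51 ± 0.22 (unadjusted p = 0.054 in edgeR), and Nr4a2 the most positive, 0.55 ± 0.31 (unadjusted p = 0.12 in edgeR). For Nr4a1, Sucnr1 fl/fl library 1 was at 28.6 CPM on day 1. The other library of that day, Hep-Sucnr1 KO library 3, was at 19.1 CPM, below the highest day 2 value of 20.3 CPM. Nr4a2 had only 17 to 35 counts a library. The interaction of genotype and day, with 1 library of each genotype on day 1, passed for 0 of the 28 genes in edgeR and in DESeq2. Of the listed genes 0 had an unadjusted p under 0.05 for it in edgeR. Over all 15105 genes tested, 0 passed in edgeR and 4 in DESeq2, and 557 had an unadjusted p under 0.05 in edgeR. These counts do not set the list apart.

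Genes near these receptors in their pathways were counted in lists chosen by function. Among 14 tested other nuclear receptors 4 had higher and 10 lower means in Hep-Sucnr1 KO, and among 21 other coregulators 5 and 16. None of either list passed an adjusted p of 0.05 for genotype or day in edgeR. At an unadjusted p under 0.05 in edgeR, 1 of the 21 other coregulators was lower in Hep-Sucnr1 KO and 3 were lower on day 2. Of the other receptors 0 passed for either. Over all genes tested the shares were 3.72% for genotype and 7.49% for day. Of 9 LXR target genes 1 was higher and 8 lower, with a median log2 fold change of -0.22 (0.00 over all genes tested), and 2 had an unadjusted p under 0.05 (3.72% over all genes tested). These 2, named after their values were seen, were Abcg5 and Abcg8, the partner transporters that secrete sterols into bile, with -0.31 and -0.36. Abcg5 was at 19.8, 22.5 and 24.1 CPM in Sucnr1 fl/fl and at 14.4, 19.8 and 19.8 CPM in Hep-Sucnr1 KO. Its lowest library, Hep-Sucnr1 KO library 3, is of day 1. For day 2 against day 1 the log2 fold change of Abcg5 was 0.35 (unadjusted p = 0.023 in edgeR). At an unadjusted p under 0.05, 2 LXR targets were higher and 0 lower on day 2. The receptor genes themselves, Nr1h2 and Nr1h3, had genotype values of 0.10 ± 0.11 and 0.11 ± 0.15. Of 6 retinoic acid targets 4 were higher and 2 lower, of 6 thyroid hormone targets 4 and 2, of 8 glucocorticoid receptor targets 3 and 5, and of 9 PPAR gamma and delta targets 1 and 8. All 7 immediate early genes had lower means in Hep-Sucnr1 KO. No gene of these lists passed an adjusted p of 0.05. At an unadjusted p under 0.05, 1 retinoic acid target was higher, 1 glucocorticoid receptor target was lower, and 0 of the thyroid hormone, PPAR and immediate early genes passed.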

How the data were processed

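RNA-seq libraries of cultured primary hepatocytes of both genotypes, 3 each, were analysed. The authors trimmed reads (Trim Galore 0.6.7), aligned them to GRCm38 (STAR 2.7.10a), counted read pairs per gene by strand with featureCounts on Ensembl 102 and deposited raw counts, 1 table of 25184 genes. Groups and replicate numbers are those of the labels. How pairs matching several genes were treated is not given in the sources used here.

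A filter on low counts (DESeq2-normalized mean above 5) left 15105 genes, which were tested with edgeR 4.0.16 (R 4.3.3; TMM, quasi-likelihood, extraction day and genotype, 3 residual degrees of freedom, common biological coefficient of variation 0.206, Benjamini-Hochberg over all genes). The paper used DESeq2 with extraction date, here an alternative (1.42.0). The SE given with edgeR values was derived as the absolute log2 fold change over the square root of the F statistic. CPM use TMM factors. TPM use summed exon lengths of GENCODE M21 (Ensembl 96, GRCm38). The tests were checked on simulated data. The labels number the libraries but do not say that each is a separate animal, so p-values measure the spread between these libraries, which may be technical.

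The naming rule covered all 31 genes, Sucnr1, genes of other lists past the threshold (0) and the most abundant marker of each cell type; every other gene named was chosen after its values were seen. Members and lists were chosen with earlier results of these data known.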

Additional observations from a re-analysis of the deposited data

How the results depend on the processing

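None of the 28 genes passed an adjusted p of 0.05 for genotype, extraction day or their interaction under any alternative run, and the smallest adjusted p of a listed gene for genotype was 0.875. DESeq2 gave Rarg, Esrrg and Nr4a2 no adjusted p for genotype. Over all genes, DESeq2 in place of edgeR gave 7 calls for genotype and 225 for extraction day in place of 0, no filter on low counts gave 122 for extraction day, and leaving out each library in turn gave 0 to 29, the 29 without Sucnr1 fl/fl library 2. The number of genes at 1 CPM or more in every library was 26 under all alternatives that kept this limit. With a limit of 1 TPM it was 23, and with 0.5 CPM it was 27. The number at 2-fold or more between the highest and lowest library was 2 to 4 with each library left out, the 2 without Hep-Sucnr1 KO library 5, 6 with library size alone, and 0 with libraries 4 and 5 left out, an alternative chosen after seeing the data. The genotype log2 fold change of 10 genes, among them Nr2f2 (-0.74 to -0.41) and Esr1 (0.23 to 0.50), kept its sign throughout. Signs turned for the other 18 in at least 1 alternative. With index series added to the model, Sucnr1 fl/fl library 3 was the only control in the series of the Hep-Sucnr1 KO libraries. The values were then -0.14 for Thra, 0.25 for Rxra, 0.036 for Nr2f6, -0.19 for Esrra, 0.23 for Nr3c2, 0.039 for Nr4a2, 0.18 for Ncoa1 and 0.10 for Ncor1. In the day 2 libraries alone they were -0.10 for Rxrb, 0.034 for Rxrg, -0.012 for Ppard, -0.054 for Nr2c1, -0.047 for Esrra and 0.043 for Nr4a1. With each library left out the values ran from -0.080 to 0.18 for Thra, -0.28 to 0.29 for Rarg, -0.39 to 0.13 for Rxra, -0.10 to 0.18 for Rxrb, -0.24 to 0.11 for Rxrg, -0.025 to 0.092 for Ppard, -0.52 to 0.56 for Pparg, -0.068 to 0.22 for Nr1h3, -0.054 to 0.12 for Nr2c1, -0.068 to 0.021 for Nr2c2, -0.22 to 0.013 for Nr2f6, -0.048 to 0.21 for Esrra, -0.81 to 0.50 for Esrrg and -0.42 to 0.051 for Nr4a1. The lowest values of Pparg and Esrrg were those without Hep-Sucnr1 KO library 4 and the highest those without library 5. The cause of these turns was not tested. Without 1 of the day 1 libraries the other is alone on its day and does not inform the genotype value. No paired analysis was possible because the genotypes share 1 replicate number, 3. Depth limited Vdr, Nr2f1 and Hnf4g, which were not tested, and the spread of Nr2c2, Nr4a2 and Rarb was within 1.5 times counting error.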
